A study of Mus musculus with 20 samples.

Results

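The genes described here encode 8 RNA-binding proteins that act on cytokine messages, as measured by RNA-seq in dendritic cells cultured from mouse bone marrow (BMDCs). They were chosen by name, as the rows of the count table with the symbols Zfp36, Zfp36l1, Zfp36l2, Zc3h12a, Zc3h12c, Elavl1, Khsrp and Hnrnpd, and make up 8 of the 24421 genes listed. All 8 passed the filter on low counts, which left 12465 genes to test. The cells came from wild-type C57BL/6 mice and were grown from bone marrow for 8 days in 40 ng/mL GM-CSF. Cultures of 5 mice (A to E) were each divided over 4 conditions, giving 20 libraries. DMSO Ova was soluble ovalbumin with the vehicle (5% DMSO by the labels), and DMSO IC was ovalbumin bound by anti-ovalbumin IgG into immune complexes (IC) with the same vehicle. The iBET Ova and iBET IC groups received these stimuli with 3.3 µM I-BET151 (iBET), an inhibitor of the BET bromodomain proteins that read acetylated histones. Stimulation lasted 4 hours in every group. The labels place the inhibitor together with the stimulus, while the study's methods place it shortly before. No group was left without ovalbumin, and the labels give no age or sex.

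Many cytokine messages are short-lived because AU-rich elements in their 3′ untranslated regions (UTRs) are bound by proteins that bring in the decay machinery. Tristetraprolin (Zfp36) and its relatives BRF1 (Zfp36l1) and BRF2 (Zfp36l2) are zinc finger proteins that bind these elements and recruit the CCR4-NOT deadenylase, and tristetraprolin is known for limiting Tnf in macrophages and dendritic cells. Regnase-1 (Zc3h12a) and regnase-3 (Zc3h12c) are endonucleases that cut stem-loops in inflammatory messages. HuR (Elavl1) binds AU-rich elements and generally stabilizes the message, KSRP (Khsrp) promotes its decay, and AUF1 (Hnrnpd) is best known for destabilizing its targets.

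The 20 libraries held 16447491 to 29245150 counts. The 8 genes together spanned 240 counts (Hnrnpd) to 7117 counts (Zfp36) per library. Of the defining markers of dendritic cells, Itgax was present at 1718 to 2725 CPM (counts relative to the TMM-scaled library size) and Ccr7 at 109.7 to 757 CPM, whereas Flt3 was near 0 (at most 4.94 CPM). Markers of macrophages and monocytes were also present, with Csf1r at 485 to 1235 CPM, whereas the 6 lymphocyte markers summed to at most 0.848 CPM, the 3 mast cell and basophil markers to at most 2.70 CPM, and 5 of 6 neutrophil markers to 11.5 to 45.9 CPM. In bulk RNA, fewer cells of a type and less RNA per cell cannot be told apart. The summed macrophage markers (6 of 6 present) ranged from 1238 to 1807 CPM in DMSO Ova and from 883 to 1240 CPM in iBET Ova. With IC they ranged from 1288 to 1807 CPM with DMSO and from 943 to 1374 CPM with iBET. The 6 did not move as one, since edgeR called 1 raised with iBET, 2 reduced and 3 neither way under each stimulus. Of all genes, 56.6% (Ova) and 56.1% (IC) were called. With the mouse as a block, 1 macrophage marker was raised under each stimulus, beside 3 reduced for Ova and 2 for IC. The 7 dendritic cell markers summed to 4284 to 6690 CPM in DMSO Ova and 4564 to 7060 CPM in iBET Ova, and to 4997 to 7848 CPM in DMSO IC and 5444 to 8834 CPM in iBET IC. Taken gene by gene, iBET gave these 7 markers a median of -0.30 (Ova) and -0.27 (IC) on the log2 scale, and under each stimulus edgeR called 0 of them raised and 1 reduced. With the mouse as a block, 4 were reduced under each stimulus, beside 1 raised for Ova and 2 raised for IC. The part of either list in the changes below was not tested. Mice A and B were known from earlier results of these data to stand apart from C, D and E, and the labels name no batch, so values within each set are given where they bear on a result. The fit within mice A and B has 2 libraries per group, and for IC with DMSO it called 500 genes beside 2531 with all mice. A call lost there therefore does not show that a gene was unchanged in these mice.

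The heptamer TATTTAT (with U for T in RNA) is the core of the AU-rich element that the tristetraprolin family binds. It was searched on the transcript strand in the longest annotated 3′ UTR of each tested gene, with overlapping matches counted separately. It occurred in 3427 of 11319 genes (30.3%), and 0.707% held 5 or more matches. Among the 8 regulators it occurred in the 3′ UTRs of 5, namely Elavl1 (8 matches in 4218 bases), Zfp36 (3 in 774), Zfp36l1 (3 in 1835), Zfp36l2 (3 in 1822) and Zc3h12c (2 in 4062), and not in those of Zc3h12a, Khsrp and Hnrnpd. The 30 bases with the most matches are shown for Zfp36 and Elavl1, whose matches lie close together, and for 4 known target transcripts whose levels are given further below, from GENCODE M21 transcripts (GRCm38), with the heptamer in capitals.
Zfp36 (chr7:28376958-28376987, minus strand): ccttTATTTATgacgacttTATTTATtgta
Elavl1 (chr8:4285776-4285805, minus strand): TATTTATTTATTTATTTATtttTATTTATt
Ier3 (chr17:35822485-35822514, plus strand): taattaaTATTTATgTATTTATgtatatcc
Il1b (chr2:129364801-129364830, minus strand): ttaccTATTTATTTATgTATTTATtgattg
Ptgs2 (chr1:150105790-150105819, plus strand): ctgaccaTATTTATTTATTTATgtgaagaa
Il12b (chr11:44413478-44413507, plus strand): agtaatttatgTATTTATtaatttatttct
A match is a description of these letters and not of a bound site. The window of Elavl1 held 5 heptamers, that of Zfp36 held 2, and among the 4 targets shown the count ran from 3 in Il1b and Ptgs2 to 1 in Il12b. Of all 19 listed targets, 16 held the heptamer. Among those not shown, the densest window held 5 in Tnf and Csf2 and 4 in Cxcl1 and Cxcl2.

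Of the 8 regulators, 4 changed with iBET under either stimulus. Zfp36 was higher, and Zfp36l1, Zc3h12c and Hnrnpd were lower, by the quasi-likelihood test of edgeR at an adjusted p of 0.05. A change was the common case, since 56.6% of all tested genes were called with Ova (27.7% higher and 28.9% lower) and 56.1% with IC (27.1% higher and 29.0% lower), so that 4 of 8 is close to the background. With the mouse as a block, 7 of 8 were called with Ova, where the blocked test called 68.7% of all genes, and 5 of 8 with IC, where it called 68.0%. IC against Ova raised Zc3h12c and Elavl1 with DMSO, 2 of 8, beside 20.3% of all genes (9.59% higher, 10.7% lower) and 38.1% with the block. With iBET it raised Zc3h12c alone among the 8, beside 11.8% of all genes (5.19% higher, 6.63% lower) and 28.9% with the block. The balance of the IC calls depended on scaling: 47.2% of the calls with DMSO were higher by TMM and 18.3% by library size only, and with iBET 43.9% and 13.4%. The median log2 fold change of all genes with IC moved from -0.024 to -0.13 with DMSO and from -0.014 to -0.12 with iBET under that scaling. A test of the interaction, which asks whether iBET acted differently under the 2 stimuli, called 0 of 8 regulators and 0.0401% of all genes by edgeR. Among the regulators, 1 of 8 (Zc3h12c) had an unadjusted interaction p under 0.05 in edgeR, beside 543 of the 12465 genes. With the block it was 3 of 8, beside 1395 of the 12465 genes. After adjustment DESeq2 called 0 of 8, as did edgeR with the block. The comparisons of iBET share the DMSO libraries with those of IC, so they are set side by side and not correlated.

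**Figure D1:**
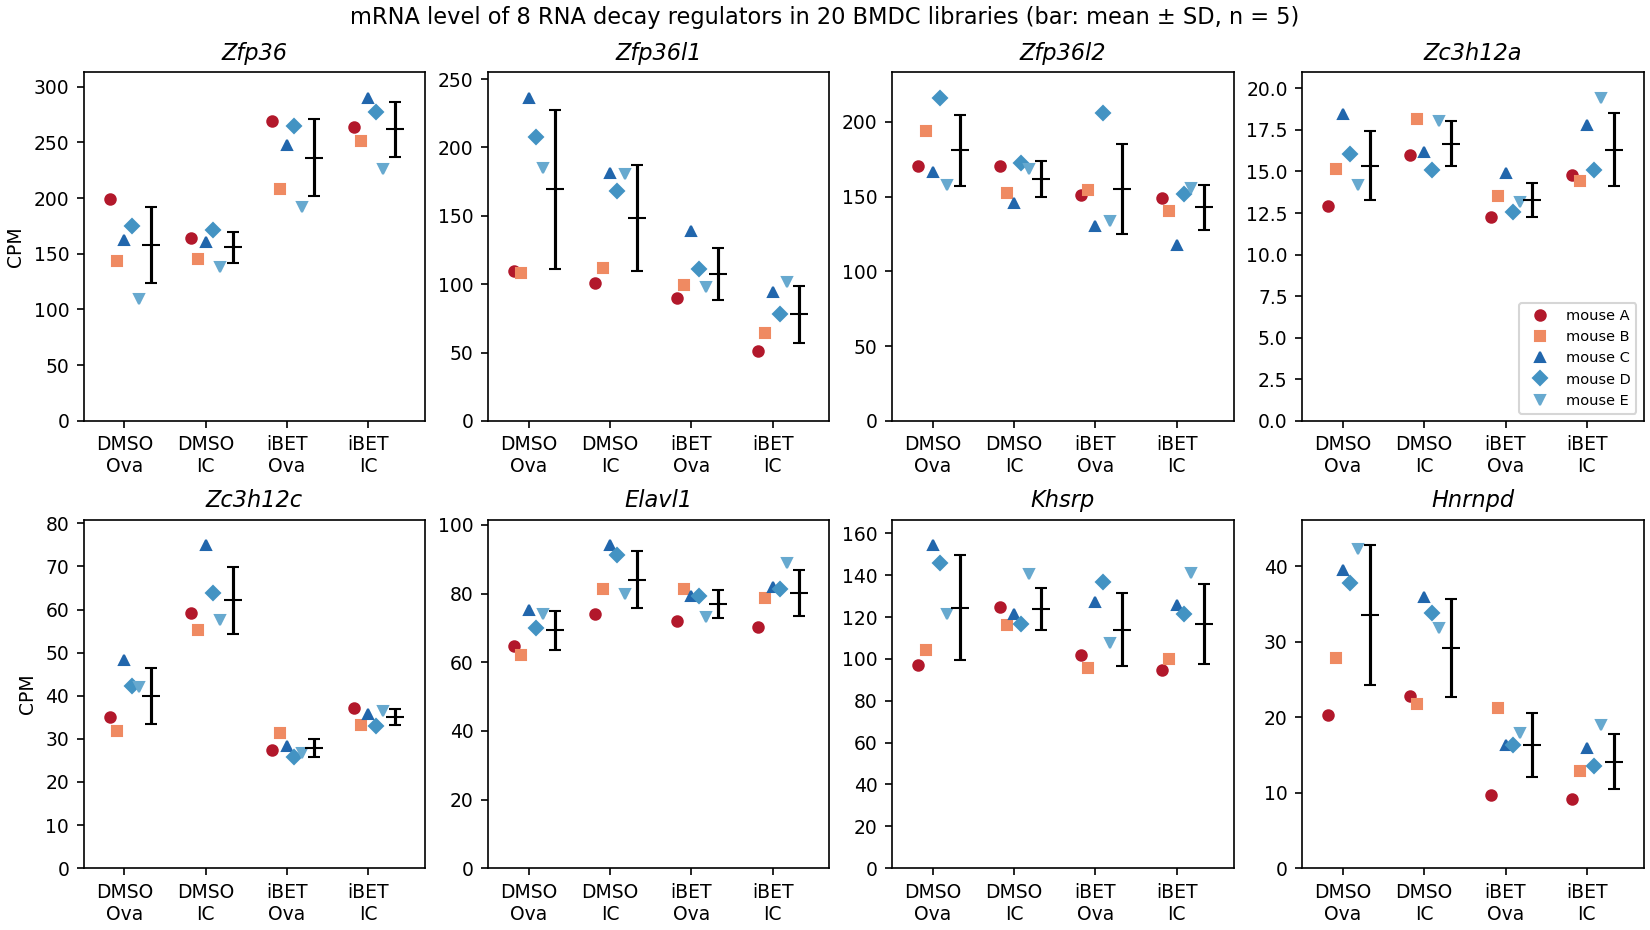
Levels of the 8 regulators in CPM (linear axis from 0) by group, with 1 symbol per mouse and the mean ± SD of 5 libraries as a bar beside them. Zfp36 sits higher in the iBET groups, and Zfp36l1, Zc3h12c and Hnrnpd sit lower, while mice A and B (red and orange) lie at the bottom for Zfp36l1 and Hnrnpd in the DMSO groups.

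**Figure D2:**
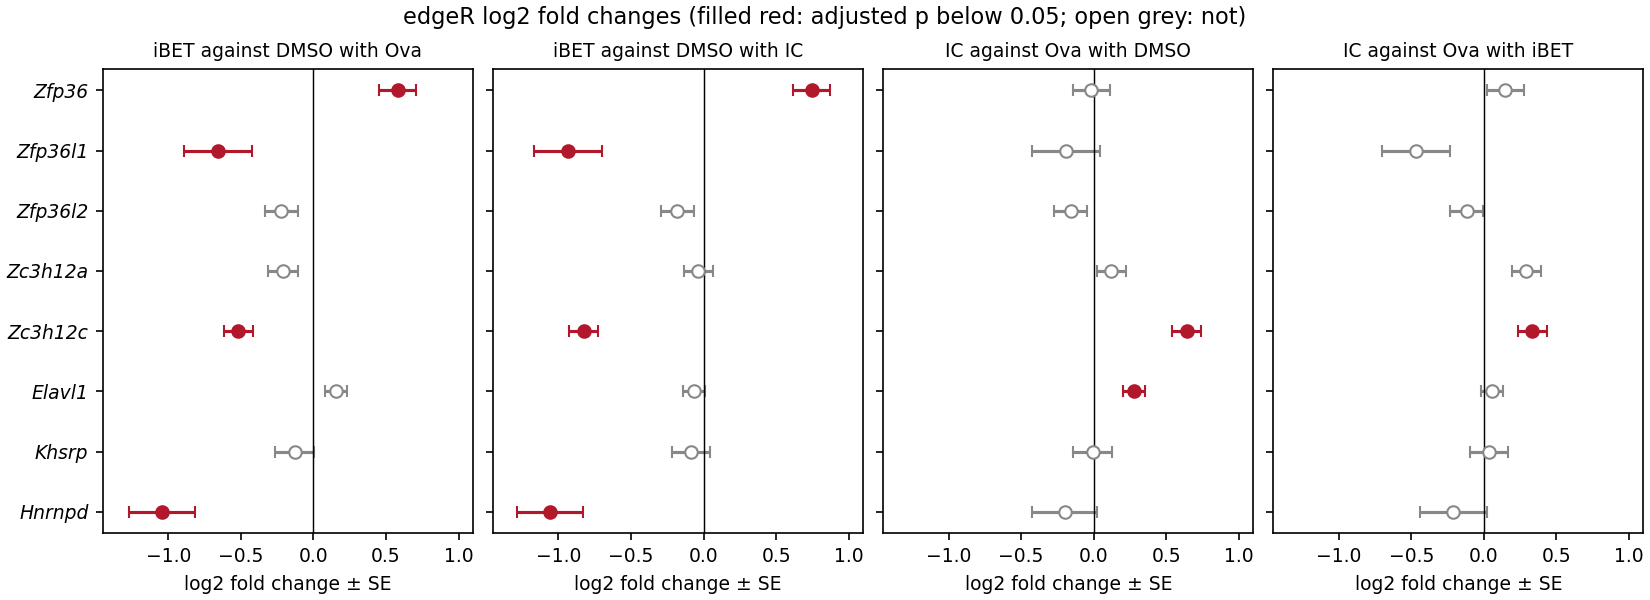
Log2 fold change ± SE of the 8 regulators in the 4 comparisons by edgeR, with calls filled in red. Each iBET comparison holds 4 calls, and the IC comparisons hold 2 under DMSO and 1 under iBET.

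Zfp36, which encodes tristetraprolin (ENSMUSG00000044786.6, chr7:28376784-28380253, minus strand, GRCm38), was the one regulator of the 8 called higher with iBET without a block. With the mouse as a block, Elavl1 was also called higher with iBET and Ova (log2 0.16, edgeR adjusted p = 0.022). In mice A to E the level of Zfp36 was 199, 144, 162, 174 and 109.7 CPM in DMSO Ova and 269, 208, 248, 264 and 192 CPM in iBET Ova. Every mouse was higher with iBET, although the groups overlapped, since mouse A reached 199 CPM without the inhibitor and mouse E 192 CPM with it. The rise was 1.497-fold (log2 fold change 0.58 ± 0.13, SE, edgeR adjusted p = 6.9e-04). With IC the level was 164, 145, 161, 172 and 138 CPM with DMSO and 263, 251, 289.7, 277 and 226 CPM with iBET. Here the groups did not overlap, and the rise was 1.68-fold (log2 0.75 ± 0.13, edgeR adjusted p = 5.7e-05). Within mice A and B the log2 differences were 0.47 with Ova and 0.75 with IC, and within C, D and E they were 0.70 and 0.78, all called by edgeR. IC did not change Zfp36 detectably, with a log2 difference from Ova of -0.02 ± 0.13 with DMSO (edgeR adjusted p = 0.95) and of 0.15 ± 0.13 with iBET (adjusted p = 0.52).

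Zfp36l1, the gene of BRF1 (ENSMUSG00000021127.7, chr12:80107754-80113013, minus strand, GRCm38), went the opposite way. Its level in mice A to E was 109.7, 108, 236, 207 and 185 CPM in DMSO Ova and 90.0, 99.2, 139, 111 and 97.7 CPM in iBET Ova. All 5 mice were lower with iBET, but mice A and B were already low with DMSO, so that the groups overlapped. The mean fell 1.58-fold (log2 -0.66 ± 0.23, edgeR adjusted p = 0.022, or 7.3e-05 with the mouse as a block). The log2 difference was -0.21 within mice A and B (adjusted p = 0.20 by edgeR) and -0.81 within C, D and E (adjusted p = 1.1e-04). The unblocked call was lost without mouse C, D or E, at adjusted p of 0.056, 0.10 and 0.085 by edgeR. In DMSO Ova the summed macrophage markers were 1714 to 1807 CPM in mice A and B and 1238 to 1449 CPM in C, D and E, and the dendritic cell markers 4284 to 4632 and 5679 to 6690 CPM. Their part in the split of Zfp36l1 was not tested.

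With IC, Zfp36l1 stood at 101, 112, 181, 168 and 181 CPM with DMSO and 51.0, 64.1, 94.5, 78.2 and 101 CPM with iBET. Every mouse fell, and the groups met at 101 CPM, in mouse A with DMSO and mouse E with iBET. The decrease was 1.91-fold (log2 -0.93 ± 0.24, edgeR adjusted p = 0.0022), and it was called in both sets of mice (-0.87 and -0.92). IC against Ova gave -0.19 ± 0.23 with DMSO (edgeR adjusted p = 0.63) and -0.47 ± 0.23 with iBET (adjusted p = 0.22), the latter called with the mouse as a block (-0.50, adjusted p = 0.0021). The lincRNA Gm26669 overlaps 55.9% of the merged exons of Zfp36l1 on the opposite strand and has no row in the count table. The strand setting of the counting is not given in the sources used here, so reads of the pair may be mixed.

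Zfp36l2, the gene of BRF2 (ENSMUSG00000045817.8, chr17:84183931-84187947, minus strand, GRCm38), passed the TMM-scaled test of all 5 mice without a block in none of the 4 comparisons. Its level was 171, 194, 166, 216 and 158 CPM in DMSO Ova and 151, 154, 130.1, 206 and 134 CPM in iBET Ova. It was 170.3, 152, 146, 173 and 169 CPM in DMSO IC and 149, 140.4, 118, 152 and 156 CPM in iBET IC. The groups overlapped in both comparisons, yet all 5 mice were lower with iBET under each stimulus. The log2 differences were -0.22 ± 0.11 with Ova (edgeR adjusted p = 0.10, or 0.013 with the mouse as a block) and -0.18 ± 0.11 with IC (adjusted p = 0.19, or 0.042 with the block). Surrogate variables also called both differences (adjusted p = 0.021 with Ova and 0.0044 with IC in edgeR), and the one with Ova was called with library size only (0.046) and without mouse D (0.027). The difference between IC and Ova was -0.16 ± 0.11 with DMSO and -0.12 ± 0.11 with iBET, called neither with the block nor without it.

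The 3 relatives were then set against each other within each library, as counts per kilobase of merged exons, so that no scaling factor entered. Zfp36 made up 40.3, 31.2, 27.0, 27.8 and 22.9% of the family's summed level in mice A to E of DMSO Ova and 51.6, 43.8, 46.1, 44.4 and 44.0% in iBET Ova. The groups did not overlap, and the mean share was 29.9% ± 6.57 (SD, n = 5) against 46.0% ± 3.28. In DMSO IC the share was 32.2% ± 3.60 and in iBET IC 53.1% ± 4.39, again without overlap. The share of Zfp36l1 was 36.4% ± 9.46 in DMSO Ova and 18.2% ± 4.34 in iBET IC, where mouse A was lowest at 12.6%. The share of Zfp36l2 stayed within 28.6% ± 3.57 to 33.8% ± 5.09 over the 4 group means. Thus Zfp36l1 had the highest mean level of the family in DMSO Ova (56.6 ± 19.4 CPM per kb, beside 51.2 ± 6.71 for Zfp36l2 and 45.5 ± 9.71 for Zfp36), with all 3 ranges overlapping. This order held in mice C, D and E only, where its share was 45.68, 38.35 and 44.82%. In mice A and B its share was the lowest of the 3 (25.75 and 27.27%). In iBET IC the order was Zfp36 (75.4 ± 7.04 CPM per kb), Zfp36l2 (40.5 ± 4.30) and Zfp36l1 (26.0 ± 6.97), with overlap between the last pair. Of the other regulators in DMSO Ova, Khsrp stood at 28.9 ± 5.82 CPM per kb, and Elavl1 (6.68 ± 0.551), Zc3h12c, Zc3h12a and Hnrnpd (4.56 ± 1.25) were lower and close together. The shares follow from the differences already given and are a description without a test.

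**Figure D3:**
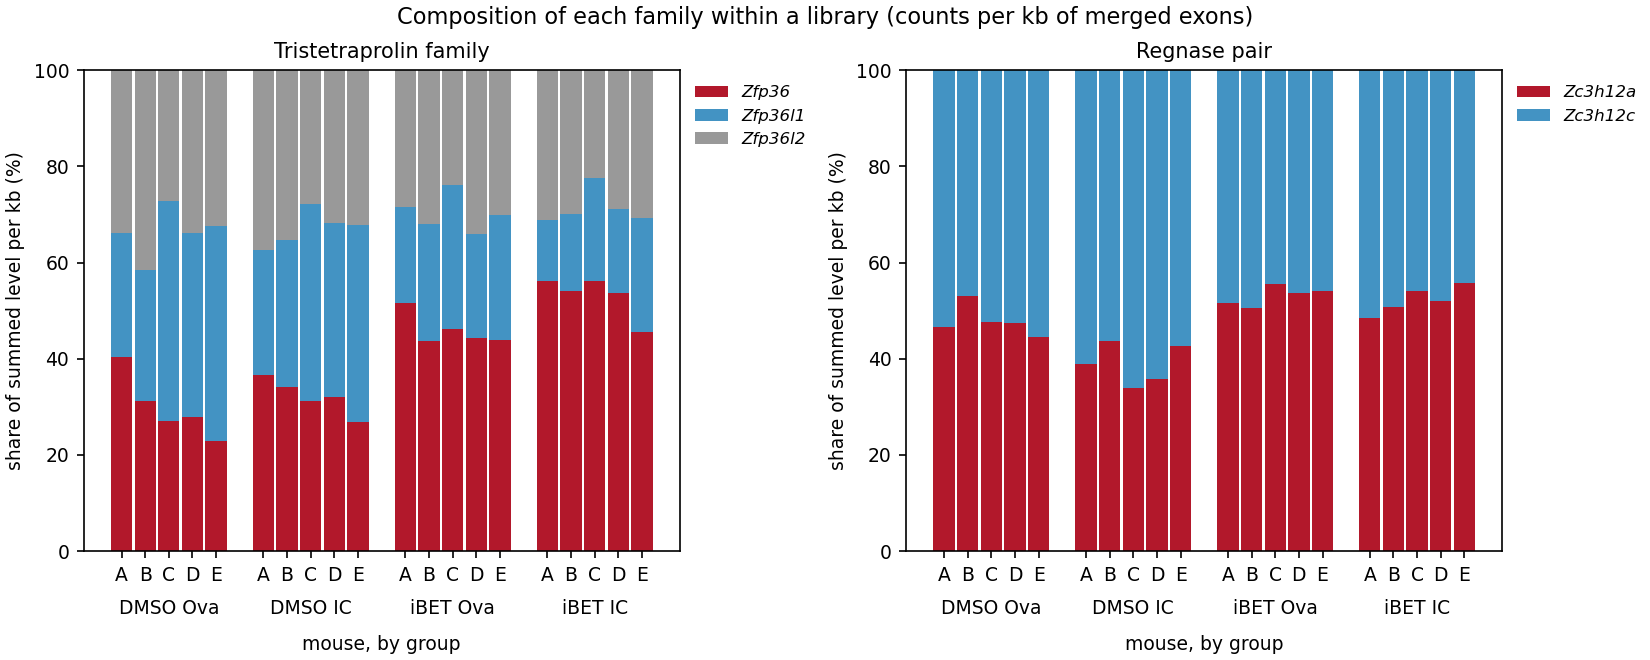
Share of each gene in the summed level per kilobase of its family (0 to 100%) in every library, ordered by group and mouse. The Zfp36 portion (red, left) reaches at most 40.3% in the 10 DMSO libraries and is at least 43.8% in the 10 iBET libraries, and the Zc3h12c portion (blue, right) is at least 56.2% in the 5 DMSO IC libraries and at most 55.4% elsewhere.

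Zc3h12c, the gene of regnase-3 (ENSMUSG00000035164.8, chr9:52111344-52168572, minus strand, GRCm38), rose with IC and fell with iBET. It was at 35.0, 31.9, 48.3, 42.2 and 42.0 CPM in DMSO Ova and at 59.3, 55.3, 74.9, 63.9 and 57.5 CPM in DMSO IC. The groups did not overlap, and the rise was 1.56-fold (log2 0.64 ± 0.099, edgeR adjusted p = 1.7e-04), called in mice A and B (0.76) and in C, D and E (0.59). With iBET its level was 27.4, 31.3, 28.4, 25.8 and 26.6 CPM with Ova and 37.1, 33.1, 35.8, 32.95 and 36.5 CPM with IC. The rise with IC was 1.26-fold under iBET (log2 0.33 ± 0.10, edgeR adjusted p = 0.035, or 0.0079 with the mouse as a block), without overlap and in 5 of 5 mice. This smaller call, made without the block, was lost without mouse A, D or E (adjusted p of 0.13, 0.13 and 0.13), within mice A and B (log2 0.28, adjusted p = 0.19) and with library size only (log2 0.23, adjusted p = 0.17), by edgeR each time.

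The fall of Zc3h12c with iBET was 1.43-fold with Ova (log2 -0.52 ± 0.10, edgeR adjusted p = 1.9e-04) and 1.77-fold with IC (log2 -0.82 ± 0.099, adjusted p = 7.3e-07). With IC the groups stood clear of each other, the lowest DMSO library at 55.3 CPM and the highest iBET library at 37.1 CPM. With Ova every iBET library lay under every DMSO library, the closest pair being both libraries of mouse B. Within mice A and B the difference with Ova was -0.20 (edgeR adjusted p = 0.17), and within C, D and E it was -0.67 (adjusted p = 5.7e-05). The interaction was -0.31 ± 0.14, with an unadjusted edgeR p of 0.042 and an adjusted p of 1.00, so the effect of iBET under the 2 stimuli was not shown to differ.

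Zc3h12a, the gene of regnase-1 (ENSMUSG00000042677.7, chr4:125118423-125127840, minus strand, GRCm38), was at a low level. It passed the main test (edgeR with TMM, without a block or surrogate variables) in none of the 4 comparisons. Its level was 12.9, 15.1, 18.5, 16.0 and 14.2 CPM in DMSO Ova and 16.0, 18.2, 16.1, 15.1 and 18.0 CPM in DMSO IC. With iBET it was 12.2, 13.5, 14.9, 12.6 and 13.2 CPM with Ova and 14.8, 14.4, 17.8, 15.1 and 19.4 CPM with IC. The groups overlapped in each of the 4 comparisons. The log2 difference of iBET from DMSO was -0.21 ± 0.10 with Ova (edgeR adjusted p = 0.084, or 0.033 with the mouse as a block) and -0.04 ± 0.1 with IC (0.78). IC differed from Ova by 0.12 ± 0.1 with DMSO (adjusted p = 0.44) and by 0.29 ± 0.10 with iBET, where 5 of 5 mice were higher (adjusted p = 0.064, or 0.014 with the block). Surrogate variables called Zc3h12a for iBET with Ova, for IC with iBET and for IC with DMSO (the last at adjusted p = 0.010 in edgeR). Library size only called it for iBET with Ova, and DESeq2 for IC with iBET. Per kilobase, Zc3h12a and Zc3h12c were near each other in DMSO Ova (5.33 ± 0.725 and 5.83 ± 0.946 CPM per kb). In DMSO IC, Zc3h12c took 61.0, 56.2, 66.1, 64.1 and 57.3% of the pair's sum in mice A to E, more than in any iBET library.

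Hnrnpd, which encodes AUF1 (ENSMUSG00000000568.15, chr5:99955935-99978938, minus strand, GRCm38), had the largest difference of the 8 with iBET. It stood at 20.2, 27.9, 39.5, 37.8 and 42.3 CPM in DMSO Ova and 9.70, 21.2, 16.3, 16.3 and 17.9 CPM in iBET Ova. All 5 mice fell, though mouse A with DMSO (20.2 CPM) lay under mouse B with iBET (21.2 CPM). The mean fall was 2.06-fold (log2 -1.04 ± 0.23, edgeR adjusted p = 6.1e-04). With IC it was 22.8, 21.7, 35.9, 33.8 and 31.8 CPM with DMSO and 9.21, 12.8, 15.9, 13.5 and 19.0 CPM with iBET, with no overlap, a fall of 2.08-fold (log2 -1.06 ± 0.23, adjusted p = 5.8e-04). With Ova the difference was -0.65 within mice A and B (edgeR adjusted p = 0.13) and -1.19 within C, D and E (7.2e-07), and with IC it was called in both sets (-0.99 and -1.04). As for Zfp36l1, mice A and B were lower than C, D and E in both DMSO groups. IC left Hnrnpd without a call, at -0.20 ± 0.22 with DMSO (adjusted p = 0.58) and -0.21 ± 0.23 with iBET (0.63).

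Elavl1, the gene of the stabilizing protein HuR (ENSMUSG00000040028.10, chr8:4285382-4325413, minus strand, GRCm38), moved least among the called regulators. Its level was 64.7, 62.2, 75.3, 70.0 and 74.0 CPM in DMSO Ova and 74.1, 81.2, 94.0, 91.1 and 79.7 CPM in DMSO IC. Every mouse was higher with IC, with overlap between mice, and the rise was 1.21-fold (log2 0.28 ± 0.076, edgeR adjusted p = 0.013, or 9.4e-04 with the mouse as a block). The unblocked call was lost without mouse B, C or D (adjusted p of 0.058, 0.056 and 0.09), within mice A and B (log2 0.28, adjusted p = 0.18) and with library size only (log2 0.17, adjusted p = 0.17). With iBET it was 72.1, 81.3, 79.4, 79.3 and 73.2 CPM with Ova and 70.2, 78.7, 82.0, 81.4 and 88.9 CPM with IC, and these groups overlapped (0.06 ± 0.076, adjusted p = 0.70 by edgeR). iBET against DMSO gave 0.15 ± 0.076 with Ova (adjusted p = 0.091, or 0.022 with the mouse as a block) and -0.07 ± 0.076 with IC (0.46).

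Khsrp, the gene of KSRP (ENSMUSG00000007670.10, chr17:57021051-57031522, minus strand, GRCm38), passed the main test in none of the 4 comparisons. Surrogate variables called it in both iBET comparisons (edgeR adjusted p = 0.047 with Ova and 0.0041 with IC). Its level was 97.1, 104, 154, 146 and 121 CPM in DMSO Ova and 125, 116, 121, 117 and 140.5 CPM in DMSO IC. With iBET it was 102, 95.8, 127, 137 and 108 CPM with Ova and 94.95, 100.2, 126, 121 and 141 CPM with IC. The groups overlapped throughout, and the log2 differences lay between -0.13 ± 0.13 (iBET against DMSO with Ova, edgeR adjusted p = 0.43) and 0.03 ± 0.13 (IC against Ova with iBET; 0.91). Within mice A and B alone the difference of iBET from DMSO with IC was -0.29 (adjusted p = 0.03), and within C, D and E it was 0.06 (0.64).

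Of 10 paralogs, 5 were tested, and Zfp36l3, Zc3h12b, Elavl2, Elavl3 and Elavl4 held at most 4 counts in any library. Fubp1, a relative of Khsrp, fell with iBET from 60.2 ± 6.45 to 32.6 ± 5.19 CPM (SD, n = 5) with Ova and from 68.8 ± 2.47 to 35.4 ± 1.41 CPM with IC, without overlap (log2 -0.89 ± 0.088 and -0.96 ± 0.088, edgeR adjusted p = 5.7e-08 and 1.8e-08). Hnrnpab, a relative of Hnrnpd, rose 1.22-fold with iBET and Ova (edgeR adjusted p = 8.1e-04) and 1.24-fold with IC and DMSO (0.0024). Neither rise of Hnrnpab was called within mice A and B. Over the 5 tested relatives, iBET raised 1 and lowered 2 with Ova, and raised 0 and lowered 2 with IC, while IC raised 2 and lowered 1 under DMSO and called 0 under iBET. Of all genes, iBET called 56.6% with Ova and 56.1% with IC, and IC called 20.3% with DMSO and 11.8% with iBET. These shares stand beside the counts of every list below.

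Of 12 other regulators of cytokine mRNA, 6 rose and 1 fell with iBET and Ova, with a median log2 fold change of 0.26 beside -0.0029 for all genes, and 6 rose and 2 fell with IC (median 0.23 beside -0.0054). Arid5a, whose product protects Il6 mRNA against regnase-1, rose from 27.6 ± 9.69 to 53.1 ± 9.44 CPM with Ova (log2 0.94 ± 0.24, edgeR adjusted p = 0.002). With IC it rose from 21.8 ± 7.04 to 42.8 ± 8.79 CPM (log2 0.97 ± 0.24, adjusted p = 0.0017), again without overlap. N4bp1, an RNase that restrains cytokine expression, fell 1.35-fold with iBET and IC (edgeR adjusted p = 1.0e-04). Tial1, which represses AU-rich messages, fell 1.15-fold with iBET and Ova (adjusted p = 0.0096), a call lost without mouse E. IC lowered Tia1, its relative, 1.56-fold with DMSO (edgeR adjusted p = 4.4e-04) and 1.49-fold with iBET (0.0021), in 5 of 5 mice each time and without overlap. Ybx1, an abundant mRNA-binding protein gene, rose with IC from 469 ± 43.1 to 583 ± 25.4 CPM with DMSO (adjusted p = 0.0016), and each was the only one of the 12 called in its direction with IC. The calls of Tia1 and Ybx1 were lost within mice A and B, which give 2 libraries per group. In every alternative the log2 difference of Tia1 was -0.55 or lower with DMSO and -0.48 or lower with iBET. That of Ybx1 with DMSO was 0.14 or higher.

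The machinery that these proteins recruit was followed by list, beside the 56.6% and 56.1% of all genes that iBET called with Ova and with IC. Of 17 deadenylation genes, 6 rose and 3 fell with iBET and Ova (median log2 0.053), and 6 rose and 4 fell with IC (0.015). Tob1, an adaptor that brings in CCR4-NOT, rose 2.19-fold with Ova and 2.19-fold with IC (edgeR adjusted p = 4.7e-08 and 4.7e-08), and Cnot6l, a deadenylase of that complex, fell 1.44-fold and 1.39-fold (0.0013 and 0.0032). The groups of Cnot6l overlapped in both comparisons, and mouse E did not fall with IC. Its call with Ova was lost within mice A and B, and that with IC within mice C, D and E. IC with DMSO raised Cnot7, another deadenylase, 1.36-fold (edgeR adjusted p = 0.0015), one of 2 that rose beside 3 that fell and not called within mice A and B, and lowered the poly(A) ribonuclease gene Parn 1.22-fold (0.039), lost without mouse B, C, D or E. With iBET, IC raised 2 and lowered 1, namely Pan2, a deadenylase gene (1.30-fold, adjusted p = 0.011), lost without mouse B or C. Of 19 genes of decapping and 5′ decay, 4 rose and 10 fell with iBET and Ova (median -0.31), and 3 rose and 7 fell with IC (-0.16). Gigyf2, a translational repressor that tristetraprolin binds, rose 1.74-fold and 1.75-fold, and Dcp1b, a decapping cofactor, fell 2.11-fold and 1.78-fold with Ova and with IC (all edgeR adjusted p at most 2.4e-06). IC lowered 2 of the 19 with DMSO and raised 2 with iBET. With IC and DMSO, Xrn1, the 5′ to 3′ exonuclease, fell 1.33-fold (edgeR adjusted p = 0.017), a call lost without mouse C, D or E. With IC and iBET, Lsm6, of the ring that aids decapping, rose 1.18-fold (0.046), lost without mouse A, B, C or D. Of 15 genes of the exosome and Ski complex, 2 rose and 5 fell with iBET under each stimulus. Exosc6, a core exosome subunit, rose 1.36-fold and 1.20-fold, and Dis3l, a cytoplasmic exosome nuclease, fell 1.80-fold and 1.80-fold (edgeR adjusted p for Dis3l = 5.4e-08 and 6.2e-08). The rise of Exosc6 with IC came with overlapping groups and was not called within mice C, D and E. Skiv2l, the Ski helicase, was the only one of the 15 called with IC, at 1.25-fold lower with DMSO (adjusted p = 8.1e-04), a call lost within mice A and B.

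Of 11 kinases and other enzymes that act on the regulators, iBET raised 3 and lowered 4 with Ova and raised 3 and lowered 3 with IC. IC raised 4 and lowered 3 under vehicle and inhibitor alike, beside 20.3% of all genes called with DMSO and 11.8% with iBET. Map2k3, which activates p38, rose from 75.5 ± 8.38 to 126 ± 17.6 CPM with iBET and Ova (log2 0.74 ± 0.11, edgeR adjusted p = 8.5e-06). Mapkapk3, a kinase downstream of p38 that acts on tristetraprolin, fell from 159 ± 16.6 to 91.9 ± 12.7 CPM (log2 -0.79 ± 0.088, adjusted p = 2.7e-07). Both moved alike with IC, by 0.74 and -0.86, and neither overlapped between groups. Mapk14, the gene of p38α, fell 1.45-fold with IC and DMSO (adjusted p = 3.4e-06) and rose 1.33-fold with iBET and IC (4.7e-06). Malt1, the protease that cleaves regnase-1, rose 1.49-fold with IC and DMSO (edgeR adjusted p = 0.0092), while its rise with iBET (1.37-fold) was lost without mouse A, C, D or E.

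Known target transcripts of the regulators were called in one direction with IC and in both with iBET. Of the 16 tested, IC raised 10 with DMSO and 7 with iBET and lowered 0 in either, with medians of 0.76 and 0.69 on the log2 scale. Of all genes, IC raised 9.59% with DMSO and 5.19% with iBET, with medians of -0.024 and -0.014. The list was chosen with earlier results of these data known. iBET raised 4 and lowered 6 with Ova (median -0.29) and raised 4 and lowered 8 with IC (-0.15), beside 56.6% and 56.1% of all genes called. Ier3, an immediate early gene whose message tristetraprolin destabilizes, rose with iBET from 50.5 ± 9.21 to 193 ± 23.9 CPM with Ova and from 61.1 ± 9.99 to 242 ± 38.1 CPM with IC (log2 1.93 ± 0.14 and 1.99 ± 0.14, edgeR adjusted p = 8.3e-10 and 5.3e-10). Il12b, the p40 subunit of IL-12, fell from 7.90 ± 2.41 to 1.28 ± 0.53 CPM with Ova and from 15.2 ± 6.50 to 3.86 ± 1.40 CPM with IC (log2 -2.62 ± 0.36 and -1.99 ± 0.32, adjusted p = 3.6e-06 and 2.4e-05). In both comparisons the groups of Ier3 and of Il12b did not overlap. Il1b rose 2.74-fold with IC and DMSO and 4.45-fold with IC and iBET (edgeR adjusted p = 0.0022 and 2.4e-04), the first lost within mice A and B. Its level was lower with iBET under both stimuli. It went from 9.98 ± 3.65 to 3.73 ± 0.82 CPM with Ova (edgeR adjusted p = 9.0e-04) and from 27.4 ± 14.8 to 16.6 ± 4.67 CPM with IC (0.040). The second call was lost without mouse A, B, C or E. The interaction of Il1b (log2 0.70 ± 0.44) was not called. Ptgs2, the gene of cyclooxygenase 2, rose with IC and DMSO (log2 2.34 ± 0.63, adjusted p = 0.013) but rested on mouse E, without which the log2 difference was 0.98 and not called.

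**Figure D4:**
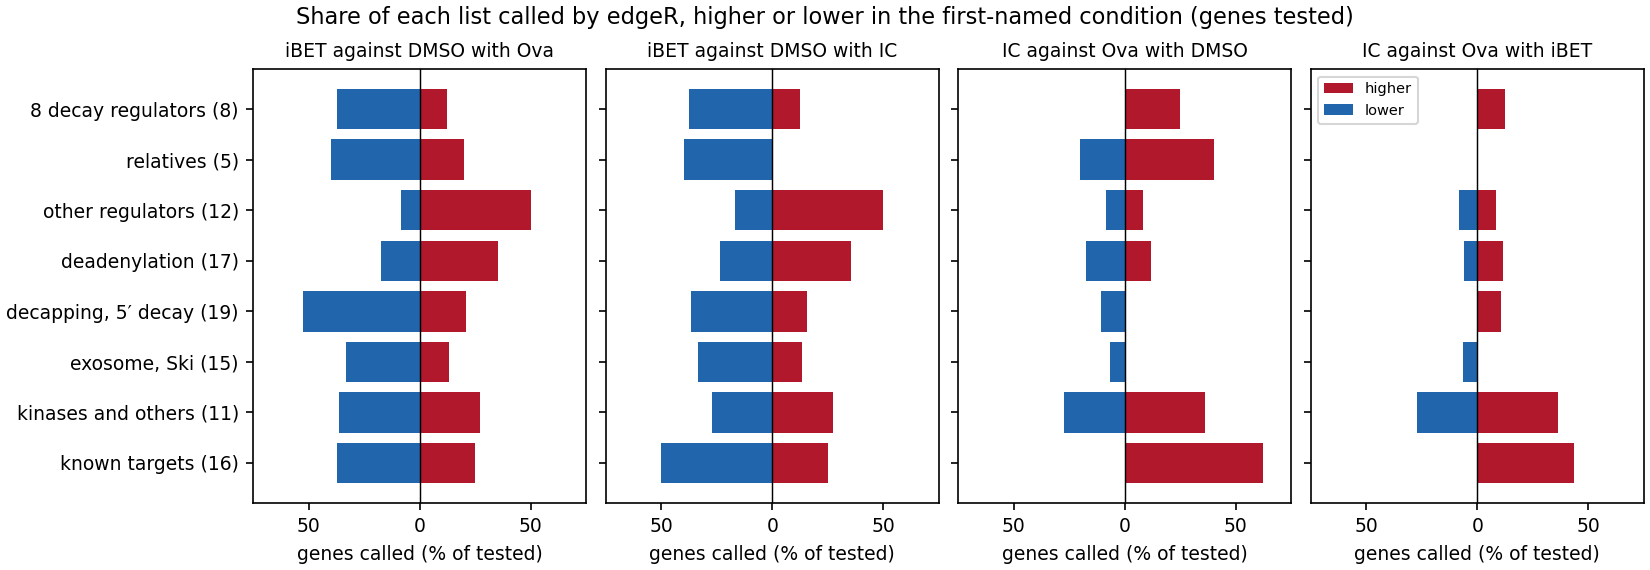
Share of each list, in percent of its tested genes (number in brackets), that was called higher (right, red) or lower (left, blue) in each comparison. The known targets are called only higher with IC, 10 and 7 of 16, and the 8 regulators lie at 1 higher and 3 lower in both iBET comparisons. Of all genes tested, IC called 9.59% higher with DMSO and 5.19% higher with iBET.

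The genes most like 3 of the regulators over the 20 libraries were named by Pearson correlation of log2 CPM among 9781 genes, as a description of libraries that share mice and conditions. For Zfp36 they were Pttg1 (r = 0.912), Rnf187 (0.909) and Aacs (0.908), for Elavl1 Purb (0.858), Rab10 (0.812) and Nap1l1 (0.810), and for Zc3h12a Aff1 (0.774), Map7d1 (0.771) and Adnp2 (0.761). After each mouse was centred, Purb still ranked first for Elavl1, whereas Pttg1 ranked 277th for Zfp36. Among the 8 regulators, Zfp36 and Hnrnpd ran most nearly opposite (r = -0.84 over 20 libraries, or -0.94 with mice centred), and Zfp36l1 and Hnrnpd most nearly together (0.892, or 0.904).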

How the data were processed

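RNA was sequenced from 20 BMDC cultures of 5 mice in 4 conditions. The labels describe cells sorted into lysis buffer and a SMARTer Universal Pico kit, and the methods describe lysis in culture and the stranded total RNA version. The authors trimmed reads (Trim Galore), aligned them to mm10 with HISAT2 and counted them per gene with featureCounts, and versions, annotation and strand setting of the counting are not given in the sources used here. The deposited table of counts was used as the main data, with 1 column per library. The authors also deposited a table of normalized signal values, which equal the counts divided by DESeq2 size factors (largest relative difference 2e-15). Of 24421 genes, 6187 had no count, and 23376 symbols matched GENCODE M21. The ribosomal RNA precursor Rn45s took 2.69 to 8.61% of a library and was kept.

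Genes were tested with edgeR 4.0.16 in R 4.3.3 (TMM scaling, filterByExpr, quasi-likelihood test, all 4 groups in 1 fit with 16 residual degrees of freedom), with Benjamini-Hochberg adjustment over 12465 genes and a threshold of 0.05. The study's methods used DESeq2 after batch removal by sva without naming the design or the batches. CPM were scaled by TMM, a prior count of 2 was used for log2 CPM, and SDs are over 5 mice. CPM per kilobase used merged exon lengths of GENCODE M21. Alternatives were DESeq2 1.42.0, the mouse as a replicate block, 3 surrogate variables (sva 3.50.0), other scaling, no filter, the signal values as log2 with a pseudocount of 1 in limma 3.58.1, only the compared libraries, each mouse left out, and each set of mice. The scripts were tested on simulated data. The letters A to E name the animal, and libraries of the same mouse deviated together (mean correlation 0.524 and lowest 0.307 over 30 pairs, beside a mean of -0.16 between mice), so the letters pair the libraries. Named context genes were the called gene with the largest rise and the largest fall of each list in each comparison, among genes averaging 100 counts or more, plus any list gene with a called interaction. The regulators, lists and the split of mice were chosen with earlier results of these data known.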

Additional observations from a re-analysis of the deposited data

Results flagged for a closer look

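Map2k6, which encodes a kinase that activates p38 and stands in the list of enzymes acting on the regulators, was the one listed gene whose response to IC differed between DMSO and iBET by an interaction test. The interaction was 1.41 on the log2 scale (SE 0.24; edgeR adjusted p = 0.032, or 0.012 with the mouse as a block). Its level was 2.61 ± 0.537 CPM (SD, n = 5) in DMSO Ova, 0.637 ± 0.125 CPM in DMSO IC, 1.97 ± 0.261 CPM in iBET Ova and 1.29 ± 0.141 CPM in iBET IC. IC against Ova gave -2.03 ± 0.17 with DMSO and -0.62 ± 0.16 with iBET. The gene is low, and the adjusted p was 0.058 to 0.44 when any of the 5 mice was left out, with values of 1.17 to 1.63. Among the 8 regulators, no library stood apart from the other 4 of its group by Dixon's test in any of 32 sets. The test looks for 1 library at a time, so it cannot show 2 that lie low together. Mice A and B did so for Zfp36l1 in DMSO Ova (107.9 and 109.7 CPM, beside 185.3 to 236.1 CPM in C, D and E).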

How the results depend on the processing

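For the 8 regulators, 558 of the recomputed differences kept their direction and side of the threshold, 27 became calls, 16 were lost and 31 changed sign, none of the last being called before. The calls of Zfp36, Zc3h12c and Hnrnpd with iBET were lost in no alternative other than within mice A and B. Every regulator had at least 240 counts in each library. What set the number of calls, depth included, was not tested.

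With the mouse as a block, regulators called went from 4 to 7 for iBET with Ova, where genes called went from 7057 to 8560 of 12465. For IC with iBET, regulators went from 1 to 3 and genes from 1474 to 3601. Genes called went from 2531 to 4755 for IC with DMSO and from 5 to 102 for the interaction. DESeq2 gave 2 regulators for IC with iBET and 24 interaction genes. With the block it gave 7 regulators for iBET with Ova, beside 8434 of 12465 genes, and 3 for IC with iBET, beside 3600 genes. It then gave 4611 genes for IC with DMSO and 185 for the interaction. Surrogate variables gave 8 regulators for iBET with Ova, beside 8712 of 12465 genes, and 3 for IC with iBET, beside 3102 genes. They gave 4062 genes for IC with DMSO and 47 for the interaction. Library size only gave 1 and 0 regulators for IC with DMSO and with iBET, and 2343 genes for IC with iBET. Mice A and B alone gave 1 regulator for iBET with Ova, beside 5484 of 12493 genes, and 1 for IC with DMSO, beside 500 genes. They gave 296 genes for IC with iBET and 0 for the interaction, and mice C, D and E gave 13 interaction genes. Leaving out 1 mouse gave 1180 to 2477 genes and 1 to 2 regulators for IC with DMSO, 643 to 1177 genes and 0 to 1 regulators for IC with iBET, and 0 to 2 interaction genes.

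Signs changed for differences near 0. For IC with DMSO, Zfp36 was 0.0012 with the block, 0.0076 with the signal values, 0.095 in mice C, D and E and -0.083 to 0.062 with a mouse left out, and Khsrp was 0.014 with the block, 0.015 with DESeq2 and the block, 0.11 with surrogate variables, 0.0019 without the filter, 0.014 with the signal values, 0.25 in mice A and B and -0.088 to 0.098 with a mouse left out. For IC with iBET, Elavl1 was -0.049 with library size only and -0.030 in mice A and B, and Khsrp was -0.071, -0.0087 and -0.062 to 0.095 with a mouse left out. For iBET with IC, Khsrp was 0.063 and Zc3h12a 0.11 in mice C, D and E, and Zc3h12a was -0.075 to 0.060 with a mouse left out. The interaction of Zfp36l2 was -0.076 with surrogate variables, -0.018 in mice C, D and E and -0.010 to 0.094 with a mouse left out, that of Zc3h12a was -0.085 in mice A and B, that of Khsrp was -0.074 with surrogate variables, -0.26 in mice A and B and -0.044 to 0.15 with a mouse left out, and that of Hnrnpd was 0.15 in mice C, D and E and -0.17 to 0.089 with a mouse left out.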
